A study of Mus musculus with 16 samples.

Results

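The genes described here encode the conjugating enzymes of liver drug and steroid metabolism: the UDP-glucuronosyltransferases (Ugt1, Ugt2 and Ugt3), the cytosolic sulfotransferases (Sult), the soluble glutathione S-transferases (Gst) and the microsomal glutathione S-transferases (Mgst). They were taken by gene symbol from the protein-coding genes, which gave 61 of the 25803 genes in the joined count tables. A single gene with a matching symbol but another biotype was left out. The symbol rule uses no measured value. Poly-A RNA of male mouse liver was sequenced in bulk in 16 libraries, 4 from each of 4 groups. Each animal had eaten a high-fat diet (HFD) for 12 weeks. Control and liver knockout (LKO) animals were taken after a fast of 16 h, or after that fast and 6 h of refeeding. LKO livers are knocked out for Cpt1a, the gene of carnitine palmitoyltransferase 1a, which admits long-chain fatty acids to mitochondrial oxidation. The controls are called both Control and WT in the labels, and neither the deleting agent, the strain nor the age is given in the sources used here. The labels number the samples of a group but do not say that each came from a separate animal, so p-values measure the spread between these samples, which may be technical. Libraries are named as in the count tables: the fasted controls are S40 to S43 and the fasted LKO livers S44 to S47, the refed controls are S48 to S51 and the refed LKO livers S52 to S55, and values by library follow that order.

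Conjugation is the second phase of detoxification: a polar group is attached to a drug, a steroid, a bile acid, bilirubin or a reactive lipid product, which is then carried into bile or urine. UDP-glucuronosyltransferases sit in the endoplasmic reticulum and use UDP-glucuronic acid, sulfotransferases are cytosolic and use the sulfate donor PAPS, and glutathione S-transferases join electrophiles to glutathione. In mouse liver many of these genes are known to follow sex, the position of the hepatocyte in the lobule and the transcription factors AHR, CAR, PXR and NRF2, which respond to foreign or reactive compounds.

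Proximal promoters are printed for the 5 members with a difference, given further on, that kept its call in every refit made: Sult1d1, Gstt3, Gstt1 and Gstp3, which were lower in fasted LKO livers, and Ugt2b34, which was higher after refeeding. Each is the 250 bases before the RefSeq start in build GRCm38.p6, written 5′ to 3′ on the strand of the gene. Capitals mark a match, on either strand, to 1 of 4 short letter strings: TGACNNNGC (antioxidant response element core), GCGTG (dioxin response element core), AGGTCA (nuclear receptor element core) and GTTAAT (HNF1 element core).
Sult1d1 (chr5:87569007-87569256, minus strand): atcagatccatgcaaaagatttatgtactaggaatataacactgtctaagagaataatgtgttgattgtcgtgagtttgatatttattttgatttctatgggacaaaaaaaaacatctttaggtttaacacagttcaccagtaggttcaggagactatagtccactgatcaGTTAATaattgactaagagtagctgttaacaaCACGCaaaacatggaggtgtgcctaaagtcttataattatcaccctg
Gstt3 (chr10:75781423-75781672, minus strand): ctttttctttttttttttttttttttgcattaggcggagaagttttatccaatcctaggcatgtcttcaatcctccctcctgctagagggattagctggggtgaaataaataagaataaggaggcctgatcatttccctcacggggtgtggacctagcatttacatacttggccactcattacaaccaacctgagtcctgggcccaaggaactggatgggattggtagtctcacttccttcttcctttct
Gstt1 (chr10:75797732-75797981, minus strand): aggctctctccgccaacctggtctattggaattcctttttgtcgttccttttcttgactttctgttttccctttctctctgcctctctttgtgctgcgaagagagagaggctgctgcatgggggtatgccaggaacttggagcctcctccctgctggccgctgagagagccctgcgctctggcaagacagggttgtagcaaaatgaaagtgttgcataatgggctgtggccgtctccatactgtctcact
Gstp3 (chr19:4059448-4059697, minus strand): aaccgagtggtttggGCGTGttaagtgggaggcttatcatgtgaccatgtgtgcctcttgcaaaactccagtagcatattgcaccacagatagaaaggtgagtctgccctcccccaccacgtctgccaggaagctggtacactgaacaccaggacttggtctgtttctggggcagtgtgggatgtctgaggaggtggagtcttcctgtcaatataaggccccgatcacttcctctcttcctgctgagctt
Ugt2b34 (chr5:86906938-86907187, minus strand): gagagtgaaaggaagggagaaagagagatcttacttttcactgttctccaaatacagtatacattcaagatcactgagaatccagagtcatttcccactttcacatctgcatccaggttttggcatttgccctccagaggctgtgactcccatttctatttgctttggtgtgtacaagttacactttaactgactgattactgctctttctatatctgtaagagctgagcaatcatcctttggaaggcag

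The Sult1d1 window held GTTAAT at bases 79 to 74 before the start and, on the other strand, GCGTG at bases 47 to 43. The Gstp3 window held GCGTG at bases 235 to 231, and the windows of Gstt3, Gstt1 and Ugt2b34 held none of the 4 strings. RefSeq windows were found for 52 of the 61 members. Among these, GTTAAT occurred in 12 (23.1%) against 6.52% of all 27025 windows of that length, and AGGTCA in 10 (19.2%) against 13.8%. GCGTG occurred in 8 (15.4%) against 28.2%, and TGACNNNGC in 3 (5.77%, Gsta3, Gstm5 and Mgst1) against 10.1%. The member windows had a median GC content of 45.6% and all windows one of 52%. TGACCT, the reverse complement of AGGTCA, opens with the letters of the antioxidant core, so 1 stretch can match both. A match is a string of letters, not a measured binding site.

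Of the 61 members, 45 passed the filter on low counts and were tested. The other 16 did not exceed 53 counts in any library. They were Ugt1a2, Ugt1a7c, Ugt1a10, Sult2a1, Sult2a2, Sult2a3, Sult2a6, Sult2b1, Sult3a1, Sult3a2, Sult4a1, Sult6b1, Gsta5, Gsto2, Gstt4 and Mgst2. Ugt1a7c reached that count, and none of the other 15 had more than 9. Together the members took 1.05% to 1.34% of the counts of a library. The 10 highest per length held 79.5% of the members' counts.

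Levels per length, in counts per kilobase of the deposited gene length per M (mega, TMM-scaled) counts, spanned from 0.335 for Sult1e1 to 1512 for Mgst1. Mgst1, a membrane-bound glutathione transferase of the endoplasmic reticulum and outer mitochondrial membrane, was the highest over the 16 libraries and alone held 25.8% of the members' counts. Its level per length was 1510 ± 63.4 for fasted controls, 1547 ± 169 for fasted LKO livers, 1470 ± 120.1 for refed controls and 1521 ± 130.1 for refed LKO livers (SD, n = 4), and these 4 groups overlapped. Next per length came Gstm1 at 607 and Gstp1 at 530, the leading mu and pi class transferases, and then Ugt2b5 at 340, Gsta3 at 338 and Ugt2b36 at 252. Sult2a8, a bile acid and hydroxysteroid sulfotransferase, followed at 186, Gstt1 at 178, Gstz1, which isomerises maleylacetoacetate in tyrosine breakdown, at 174, and Sult1a1, a phenol sulfotransferase, at 151. Within the Ugt1 locus Ugt1a1, the bilirubin-conjugating enzyme, led at 39.3. These ranks depend on the deposited lengths, which for some genes far exceed their protein-coding transcripts in GENCODE M21. Gsta3 has 4344 deposited bases and 1739 distinct 50-base stretches there, and Gstm1 has 1473 and 1442. In CPM Gsta3 was above Gstm1 in fasted control (1427 and 1044), refed control (1903 and 724) and refed LKO livers (1680 and 828). In fasted LKO livers it was below (858 and 980).

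**Figure D1:**
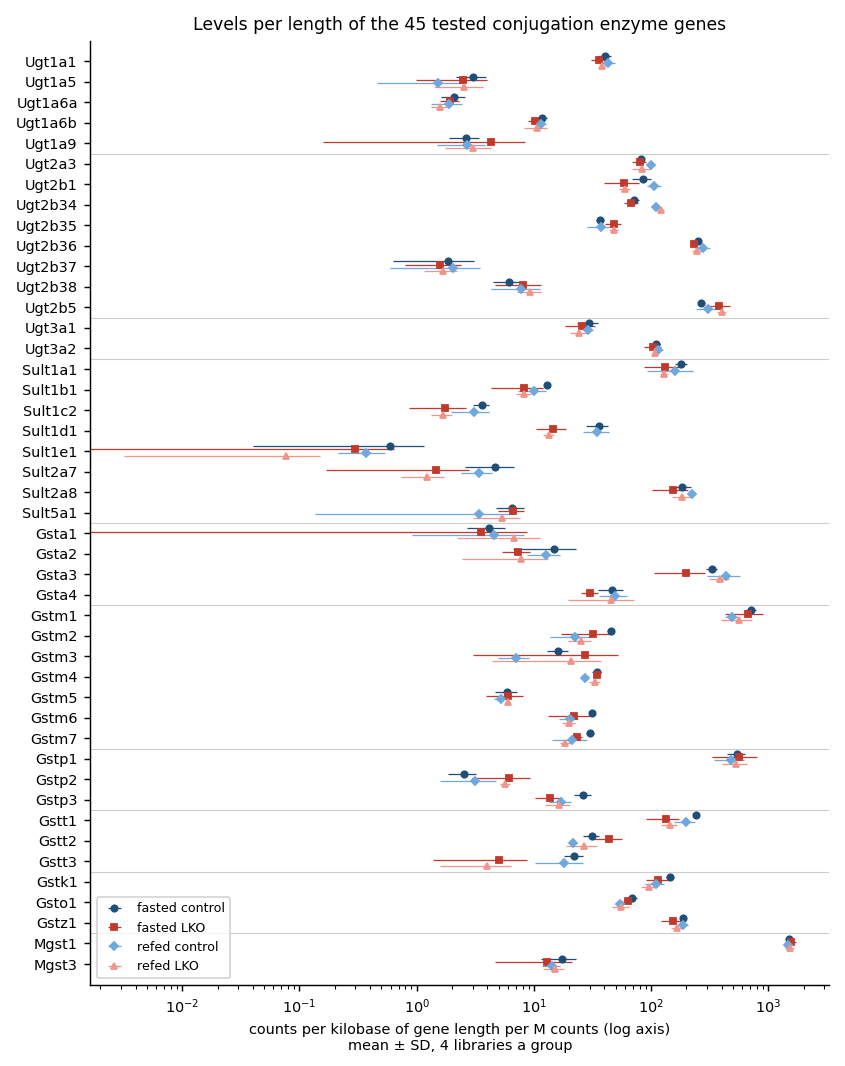
Level per length of the 45 tested members, as counts per kilobase of gene length per M counts on a log axis; points are group means and bars the SD of 4 libraries, and lines separate the families. Mgst1 stands at the top of the scale in all 4 groups, and the groups of most members lie on each other.

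The leading members of each family that passed no genotype or refeeding test are given by library in counts per M (CPM). Mgst1 CPM by library were 2976, 2892, 3172 and 3114 for fasted controls, 2749, 3463, 3340 and 2906 for fasted LKO livers, 2973, 2795, 2775 and 3297 for refed controls and 3140, 3395, 2808 and 2908 for refed LKO livers. For Ugt2b36 they were 488, 539, 524 and 533 for fasted controls, 486, 482, 438 and 497 for fasted LKO livers, 503, 496, 666 and 610.3 for refed controls and 569.7, 492, 507 and 462 for refed LKO livers. For both genes the groups overlapped. Gstp1, the main pi class transferase, varied more between libraries of the same group. Its CPM were 1041, 748, 842 and 713 for fasted controls, 1265, 738, 1064 and 443 for fasted LKO livers, 963, 491, 873 and 663 for refed controls and 1001, 938, 550.4 and 785 for refed LKO livers. Fasted LKO library S47 was the lowest of the 16 and library S44 the highest. Gstp1 and Gstp2 share 51% of the 50-base stretches of Gstp1's transcripts in GENCODE M21, so reads between them may have been divided either way. Ugt2b5, a steroid-conjugating glucuronosyltransferase, had 514, 532, 502 and 448 for fasted controls, 878, 669, 809 and 488 for fasted LKO livers, 500.5, 449.6, 721 and 619 for refed controls and 781, 812, 702 and 671 for refed LKO livers. Its fasted genotype difference was 0.51 ± 0.17 on the log2 scale with an adjusted p of 0.0536, above the threshold of 0.05. By contrast, DESeq2, upper quartile scaling, the filter at a mean of 5 CPM and the fits without S47, S49 or S50 called it higher in fasted LKO livers. Of Ugt2b5's 50-base stretches, 41.7% occur in another gene (34.8% in Ugt2b38), so the division of its reads is uncertain.

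Sult2a8 CPM were 509, 732, 662 and 506 for fasted controls, 505, 524, 709 and 288 for fasted LKO livers, 753, 716, 771 and 699.7 for refed controls and 552, 738, 488 and 619.9 for refed LKO livers. Sult1a1 CPM were 269.8, 296, 294 and 227 for fasted controls, 106, 269.6, 192 and 230.4 for fasted LKO livers, 239, 389, 159 and 183 for refed controls and 193, 212, 194 and 176 for refed LKO livers, with refed control library S49 the highest of all. Neither sulfotransferase passed a test in any contrast. Gstz1 had 940.2, 911, 1002 and 922 for fasted controls, 599.9, 985, 731 and 815 for fasted LKO livers, 987, 1059, 856 and 910 for refed controls and 951, 902, 829.8 and 724 for refed LKO livers. Gstk1, the kappa class transferase of mitochondria and peroxisomes, had 217, 204, 236 and 197 for fasted controls, 126, 208, 159.5 and 179.9 for fasted LKO livers, 168, 193, 120.2 and 159 for refed controls and 169.6, 141, 137 and 120.2 for refed LKO livers. For both, fasted LKO library S44 was among the lowest values. All refed control values of Gstk1 lay below all its fasted control values, at -0.41 ± 0.15 (adjusted p = 0.0802). The aldehyde-conjugating Gsta4, whose substrates include the lipid peroxidation product 4-hydroxynonenal, had 78.9, 55.6, 48.2 and 50.7 for fasted controls, 45.9, 33.0, 33.4 and 41.02 for fasted LKO livers, 70.7, 79.1, 57.1 and 41.9 for refed controls and 105, 51.7, 30.5 and 42.8 for refed LKO livers. All 4 fasted LKO values lay below all 4 fasted control values, with a difference of -0.61 ± 0.30 and an adjusted p of 0.203. Ugt1a1 CPM were 74.2, 96.0, 101 and 87.3 for fasted controls, 65.8, 83.2, 75.6 and 94.0 for fasted LKO livers, 83.6, 84.1, 98.4 and 115 for refed controls and 86.8, 91.0, 84.0 and 80.1 for refed LKO livers, and the groups overlapped.

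Ugt1a6b, of the phenol-conjugating Ugt1a6 pair, had 26.5, 32.5, 27.2 and 24.6 for fasted controls, 21.3, 28.0, 21.8 and 27.0 for fasted LKO livers, 26.4, 24.3, 30.5 and 29.4 for refed controls and 21.5, 25.8, 32.6 and 20.9 for refed LKO livers. The tested Ugt1 genes are alternative first exons joined to a common body, and 58.2% to 96.0% of their 50-base stretches occur in another gene, so the division of reads among them is uncertain. Ugt3a2 had 296, 337, 377 and 343 for fasted controls, 246, 353, 335 and 356 for fasted LKO livers, 335, 318, 381 and 387 for refed controls and 332, 332, 346 and 328 for refed LKO livers, and Ugt3a1 had 59.3, 88.9, 95.0 and 70.0 for fasted controls, 46.2, 93.3, 63.6 and 74.2 for fasted LKO livers, 72.1, 73.3, 87.4 and 77.2 for refed controls and 79.7, 64.7, 60.1 and 55.3 for refed LKO livers. These 2 UGT3 enzymes, which use other sugar donors than UDP-glucuronic acid, had no call in any contrast. Mgst3, a microsomal glutathione peroxidase and transferase, had 18.8, 18.1, 11.7 and 27.1 for fasted controls, 7.89, 15.7, 6.73 and 26.4 for fasted LKO livers, 14.7, 19.6, 13.9 and 14.2 for refed controls and 19.7, 14.1, 18.9 and 13.3 for refed LKO livers. Its fasted LKO values ran from 6.73 to 26.4, both below and within the control range.

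Library totals ran from 14721601 to 24618230 counts. Cpt1a itself had 100.5 ± 17.3 CPM in fasted LKO against 487 ± 83.2 in fasted control livers, and 54.2 ± 16.6 against 457 ± 137 in the refed groups (SD, n = 4), with no overlap in either state (exact two-sided permutation p = 0.0286, the smallest that 4 against 4 libraries can give). Hepatocyte markers were high in all libraries: the summed level of 8 of 8 markers was 81680 to 90240 CPM for fasted controls, 67360 to 76630 for fasted LKO livers, 77860 to 100000 for refed controls and 69470 to 83520 for refed LKO livers. The fasted groups did not overlap, and 2 of the 8 markers, Ttr and Ahsg, were lower in fasted LKO livers by the test. The 5 lymphocyte markers summed to 3.40 to 5.91 CPM in fasted control and 12.2 to 32.1 in fasted LKO livers, and to 2.55 to 4.79 and 15.3 to 37.3 in the refed groups. Jchain was the 1 marker called, higher in LKO livers in both states. It made most of the rise in these sums, with means of 1.78 and 18.4 CPM in fasted control and LKO livers and 1.67 and 23.8 refed. The 6 cholangiocyte markers summed to 30.2 to 81.0 CPM over all libraries, the 6 stellate or fibroblast markers to 139 to 238, the 5 endothelial markers to 95.0 to 158 and the 6 macrophage markers to 177 to 523. Adipocyte markers summed to 10.6 to 72.7 CPM, with Lep at 0 in every library of 3 groups and Adipoq at 0 in every refed control library. In these 5 lists 3 markers were called between genotypes. The adipocyte marker Cfd was lower in fasted LKO livers (34.4 ± 23.0 to 3.24 ± 4.27 CPM). Fabp4, the other of the 2 tested adipocyte markers, went the other way without a call (16.2 ± 6.18 to 33.7 ± 19.6 CPM). The fibroblast marker Dcn was higher in fasted LKO livers (0.36 on the log2 scale), where 4 of the 6 estimates of its list were above 0 and 2 below. The endothelial marker Clec4g was higher in refed LKO livers (0.44), where 2 of the 5 estimates of its list were above 0 and 3 below. The part of these shifts in the member differences was not tested. In bulk liver, fewer cells of a type and less RNA per cell cannot be told apart.

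Between genotypes, a small set of conjugation enzyme genes was called lower in LKO livers. In the fasted state 7 of the 45 tested members passed an adjusted p of 0.05 over all 14488 genes tested: 6 were lower in LKO livers (Sult1d1, Sult1c2, Sult2a7, Gstt1, Gstt3 and Gstp3) and 1, Gstp2, was higher. Of all genes tested, 6.48% were called lower and 5.75% higher in that comparison. In the refed state 3 members were lower, Sult1d1, Gstt3 and Ugt2b1, and 0 were higher, where 1.35% of all genes were called lower and 2.28% higher. The members' median difference was -0.24 on the log2 scale fasted, beside 0.02 for all genes, and -0.11 refed, beside -0.01. In the fasted state 33 of the 45 estimates lay below 0, and 28 were within 0.5 of 0. The median size of a member's difference, whatever its sign, was 0.39 fasted and 0.26 refed, beside 0.21 and 0.17 over all genes. Calls in either direction covered 15.6% of tested members fasted, beside 12.2% of all genes, and 6.67% refed, beside 3.63%. At an unadjusted p under 0.05 the member counts were 17 fasted and 13 refed. The share of all genes at that unadjusted threshold was not computed, so these 2 counts are not read as a result.

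**Figure D2:**
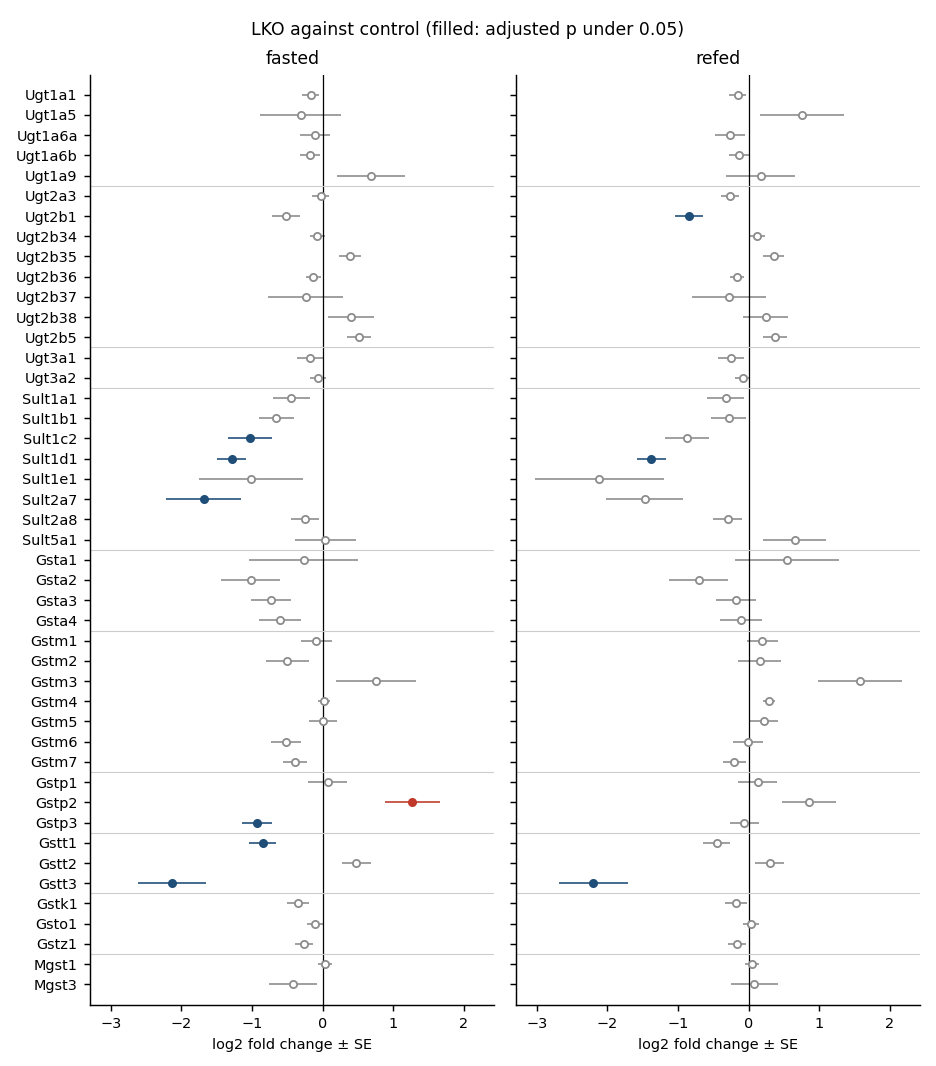
Log2 fold change of LKO against control livers ± SE for each tested member, fasted (left) and refed (right); filled points passed an adjusted p of 0.05 (blue lower, red higher), open points did not. Sult1d1 and Gstt3 are filled on the left of 0 in both states, while most members lie near 0.

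Sult1d1 (ENSMUSG00000029273, chr5:87702504-87716886 in mm39), a sulfotransferase of catecholamines and other phenols whose promoter is printed above, was lower in LKO livers in both feeding states. Fasted CPM were 73.4, 73.6, 113 and 90.3 in control and 21.4, 39.3, 36.8 and 45.8 in LKO livers. Refed CPM were 69.3, 117, 81.7 and 75.1 in control and 38.2, 31.4, 32.2 and 30.3 in LKO livers. Every LKO library lay below every control library in both states. The level fell from 87.6 ± 18.8 to 35.8 ± 10.3 CPM fasted (SD, n = 4), a log2 difference of -1.29 ± 0.21 (SE) or 2.45-fold (edgeR adjusted p = 0.00112). Refed it fell from 85.7 ± 21.2 to 33.0 ± 3.53 CPM, by -1.38 ± 0.21 or 2.60-fold (adjusted p = 0.00207). Refeeding gave no call for Sult1d1 in either genotype, with log2 differences of -0.03 ± 0.20 in control and -0.12 ± 0.21 in LKO livers. None of its 50-base stretches occurs in another gene.

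Sult1c2 (chr17:54136665-54153367), of a family that sulfonates phenols, and Sult2a7 (chr7:14198976-14228155), of the hydroxysteroid and bile acid family, are expressed at a low level and were lower in fasted LKO livers. Sult1c2 CPM were 7.25, 7.30, 5.12 and 6.73 for fasted controls, 5.24, 2.60, 1.40 and 3.60 for fasted LKO livers, 4.41, 3.77, 6.21 and 8.21 for refed controls and 3.02, 2.22, 3.77 and 3.29 for refed LKO livers. The fasted groups overlapped through LKO library S44, and the difference was -1.03 ± 0.31 (adjusted p = 0.0394). That call was lost without S40, S41, S43, S45, S46, S47 or S55 (adjusted p from 0.0501 to 0.094). Sult2a7 CPM were 3.58, 3.79, 8.78 and 7.84 for fasted controls, 0.499, 3.17, 0.392 and 3.48 for fasted LKO livers, 3.71, 3.98, 3.46 and 6.25 for refed controls and 2.30, 1.70, 1.48 and 0.780 for refed LKO livers. Fasted LKO libraries S44 and S46 were under 1 CPM while S45 and S47 came close to the lower controls. Its difference was -1.68 ± 0.53 (adjusted p = 0.0482), a call kept without S40, S45 or S47 and lost without any 1 of the other 13 (adjusted p up to 0.13). In the refed state neither passed, at -0.87 ± 0.31 (adjusted p = 0.14) and -1.47 ± 0.54 (adjusted p = 0.149), although for both genes all 4 LKO values lay below all 4 control values.

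The other tested sulfotransferases passed no genotype test. The phenol and thyroid hormone sulfotransferase Sult1b1 had -0.66 ± 0.24 fasted (adjusted p = 0.0921) and -0.28 ± 0.24 refed. The estrogen sulfotransferase Sult1e1 was the lowest of the tested members per length, with a refed estimate of -2.12 ± 0.91 (adjusted p = 0.221). Over the family, 7 of 8 estimates were below 0 in each state, with medians of -0.84 fasted and -0.60 refed and 3 and 1 members called lower. Summed over its 17 genes, the family had 1039 ± 148 CPM in fasted control and 800 ± 178 in fasted LKO livers, and 1117 ± 110 and 877.9 ± 122.8 in the refed groups.

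Among the theta class glutathione transferases, which act on small halogenated compounds and epoxides, Gstt3 and Gstt1 were lower in LKO livers and Gstt2 was not. Gstt3 (ENSMUSG00000001665, chr10:75609949-75617248) and Gstt1 (chr10:75619647-75634418) are neighbours on the minus strand of chr10, with Gstt2 (chr10:75666948-75673258) beyond them. Gstt3 CPM were 64.2, 84.0, 103 and 87.5 for fasted controls, 6.59, 30.1, 7.90 and 32.5 for fasted LKO livers, 68.9, 112, 39.2 and 60.1 for refed controls and 28.7, 10.2, 12.9 and 9.01 for refed LKO livers. The genotypes did not overlap in either state, and within fasted LKO livers S44 and S46 lay well below S45 and S47. Gstt3 fell by 4.40-fold fasted (-2.14 ± 0.48 on the log2 scale, adjusted p = 0.00923) and by 4.59-fold refed (-2.20 ± 0.49, adjusted p = 0.0214). Without S44 or S46 the fasted difference was -1.85 or -1.88 and still called. The refed call was lost without S48, S49, S53, S54 or S55 (adjusted p from 0.052 to 0.0746). Of Gstt3's 50-base stretches, 20.6% occur in another gene, nearly all of them in the predicted gene Gm20441.

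Gstt1 (ENSMUSG00000001663) had 342, 382, 359.9 and 382 for fasted controls, 128, 248, 173 and 263 for fasted LKO livers, 294, 373, 222 and 314 for refed controls and 245, 233, 229 and 172 for refed LKO livers. In the fasted state every LKO library lay below every control library, and the level fell from 366 ± 19.1 to 203 ± 63.7 CPM (-0.85 ± 0.20, adjusted p = 0.00992). In the refed state the groups overlapped and the difference of -0.45 ± 0.19 was not called (adjusted p = 0.218). The difference between the states was not called either (0.40 ± 0.27, adjusted p = 0.489). Gstt2 CPM were 159, 129, 119 and 114 for fasted controls, 221, 137, 235 and 132 for fasted LKO livers, 93.6, 96.1, 90.7 and 80.2 for refed controls and 123.3, 151, 82.7 and 86.8 for refed LKO livers, with fasted genotype difference 0.48 ± 0.20 (adjusted p = 0.144), S44 and S46 being the high fasted LKO libraries. Gstt3 thus made up a smaller share of the theta class in LKO livers: 14.5 ± 2.60% of class counts in fasted control against 4.65 ± 3.21% in fasted LKO, and 14.7 ± 3.44% against 4.29 ± 2.04% refed (SD, n = 4). The class sum was 581 ± 12.1 CPM for fasted controls, 404 ± 32.7 for fasted LKO livers, 461 ± 93.5 for refed controls and 346 ± 61.8 for refed LKO livers.

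The pi class moved in 2 directions in the fasted state. Gstp3 (ENSMUSG00000058216, chr19:4107477-4109569) had 25.4, 23.9, 18.6 and 27.7 for fasted controls, 11.1, 15.3, 8.63 and 15.3 for fasted LKO livers, 16.04, 13.9, 12.3 and 20.03 for refed controls and 12.8, 11.0, 19.0 and 16.5 for refed LKO livers. All fasted LKO values lay below all fasted control values, a difference of -0.93 ± 0.21 or 1.90-fold lower (adjusted p = 0.00843), and in the refed state the groups overlapped (-0.06 ± 0.21, adjusted p = 0.915). Gstp2 (chr19:4090285-4096023) had 3.72, 2.63, 3.03 and 1.92 for fasted controls, 7.19, 10.3, 7.85 and 1.93 for fasted LKO livers, 2.24, 2.34, 3.46 and 6.04 for refed controls and 7.01, 6.28, 5.50 and 6.37 for refed LKO livers. In 3 of 4 fasted LKO libraries it was above every fasted control library, and S47 was not. The increase of 1.27 ± 0.39 (adjusted p = 0.042) was called only in the fits without S47, S48, S49 or S51 among those that left out 1 library (adjusted p up to 0.113 in the other 12), and limma-voom gave an adjusted p of 0.127. Sequence overlap bears on this count: 50.4% of Gstp2's 50-base stretches occur in another gene, mostly in the far higher Gstp1.

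**Figure D3:**
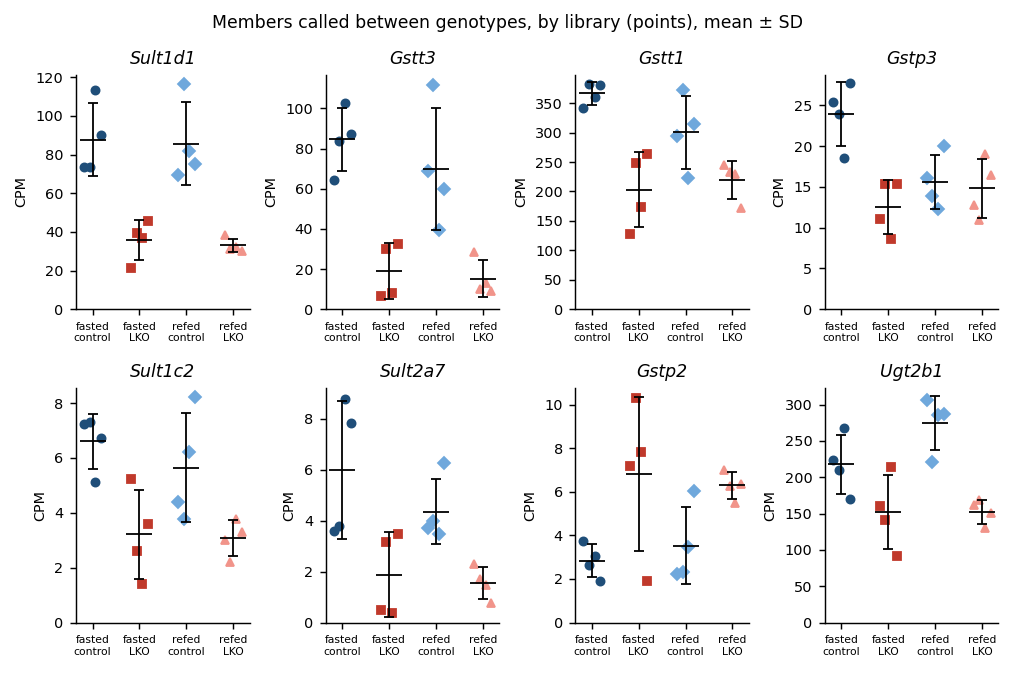
CPM in each library (points) with mean ± SD of 4 libraries for the 8 members called between genotypes; each panel has its own linear axis from 0. In the Sult1d1 and Gstt3 panels all LKO points lie below all control points in both states, and fasted LKO libraries split into a lower and a higher pair for Gstt3 and Sult2a7.

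Of the glucuronosyltransferases 1 of 15 tested members was called between genotypes. Ugt2b1 (ENSMUSG00000035836, chr5:87064497-87074389), of the steroid-conjugating UGT2B group, had 224, 209.9, 268 and 169 for fasted controls, 160.4, 142, 214 and 91.3 for fasted LKO livers, 306, 220.5, 286 and 286 for refed controls and 162, 168, 130.3 and 151 for refed LKO livers. In the refed state all LKO values lay below all control values, and the level fell from 275 ± 37.3 to 153 ± 16.6 CPM (-0.85 ± 0.20, adjusted p = 0.028). The call was lost without S48, S50, S53, S54 or S55 (adjusted p from 0.0502 to 0.0839). In the fasted state the difference was -0.52 ± 0.20 (adjusted p = 0.0975). Other Ugt2 members lay on the opposite side of 0 without passing: Ugt2b5 at 0.51 fasted and 0.37 refed, and Ugt2b35 at 0.39 and 0.35. The summed Ugt2 level was 1858 ± 95.2 CPM in fasted control and 1980 ± 211 in fasted LKO livers, and 2253 ± 290 and 2282 ± 191 in the refed groups. All 5 tested Ugt1 genes and both Ugt3 genes passed no genotype test, the lowest adjusted p being 0.404 for Ugt1a9 in the fasted state. The untested Ugt1a7c was at 0.0497 to 0.309 CPM in fasted control and 0.336 to 2.998 in fasted LKO livers. It was called higher fasted with no filter on low counts and in the fits without S46, S47, S48, S49, S50, S51, S52, S54 or S55. Its highest values were 2.60 and 2.998 CPM in fasted LKO libraries S44 and S45 and 1.90 in refed LKO library S53. Fasted LKO libraries S46 and S47 had 0.336 and 0.435. In fits leaving out 1 library it passed the filter through its few high libraries, so those calls are not read as a difference. Of its 50-base stretches, 54.2% occur in another gene.

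Alpha class transferases, which handle lipid peroxides and, through Gsta3, aflatoxin epoxide, had fasted estimates below 0 in 4 of 4 tested genes and no call. Gsta3 (chr1:21310813-21335885) had 1245, 1614, 1460 and 1387 for fasted controls, 448, 1313, 605 and 1066 for fasted LKO livers, 1848, 2780, 1531 and 1452 for refed controls and 1934, 1892, 1670 and 1223 for refed LKO livers. Fasted LKO libraries S44 and S46 were the lowest of the 16, S45 lay within the fasted control range and S47 just below it, and the difference was -0.73 ± 0.28 (adjusted p = 0.0987). DESeq2 and the fit without S45 called it lower. Gsta2 had -1.02 ± 0.42 fasted (adjusted p = 0.125) and -0.71 ± 0.42 refed (adjusted p = 0.39), and 47.4% of its 50-base stretches occur in another gene. Of the mu class, 0 of 7 genes were called between genotypes in either state. The nearest to the threshold was Gstm4 refed, at 0.28 ± 0.09 (adjusted p = 0.0765), and the widest estimate was that of Gstm3 refed, 1.58 ± 0.59 (adjusted p = 0.158). The omega, zeta and kappa class genes Gsto1, Gstz1 and Gstk1 had fasted estimates of -0.10, -0.27 and -0.34, and none was called.

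The fasted and refed genotype differences rest on separate libraries. Over the 45 tested members they had the same sign in 38, with Pearson's r of 0.82 and Spearman's rho of 0.75, where all 14488 genes gave 0.48 and 0.27. This is a description over genes, which are not independent replicates and share the 4-group fit. The same-sign share over all genes was not computed. Within the fasted LKO group, libraries S44 and S46 differed from S45 and S47 in several members at once. They were low in Gstt3, Gstt1, Gstp3, Sult2a7, Gsta3, Gstm2 and Gstm6 and high in Gstp1, Gstt2 and Ugt2b5. For Gstt1, S44 and S46 had 128 and 173 CPM, and S45 and S47 had 248 and 263. For Gstp3, S44 and S46 had 11.1 and 8.63 CPM, and S45 and S47 both had 15.3. No fit of the fasted genotype difference left out both S44 and S46. These 4 libraries have totals of 18907954 and 18396321 against 17754455 and 15636010 counts, and the labels name no batch.

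After refeeding, 1 member rose and 5 fell in control livers, and 2 rose and 1 fell in LKO livers. In control livers Ugt2b34 was higher and Gstm2, Gstm4, Gstm6, Gstm7 and Gstp3 were lower than after the fast, where the calls over all genes were 7.79% higher and 7.65% lower. Ugt2b34 and Gsta3 were higher and Gstt2 was lower in refed than in fasted LKO livers, where the calls over all genes were 9.28% higher and 8.78% lower. The members' median difference was -0.16 in control livers, beside 0.01 for all genes, and -0.01 in LKO livers, beside -0.02. Calls in either direction covered 13.3% of tested members in control livers, beside 15.4% of all genes, and 6.67% in LKO livers, beside 18.1%. At an unadjusted p under 0.05 the member counts were 11 and 3, with no share of all genes computed.

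**Figure D4:**
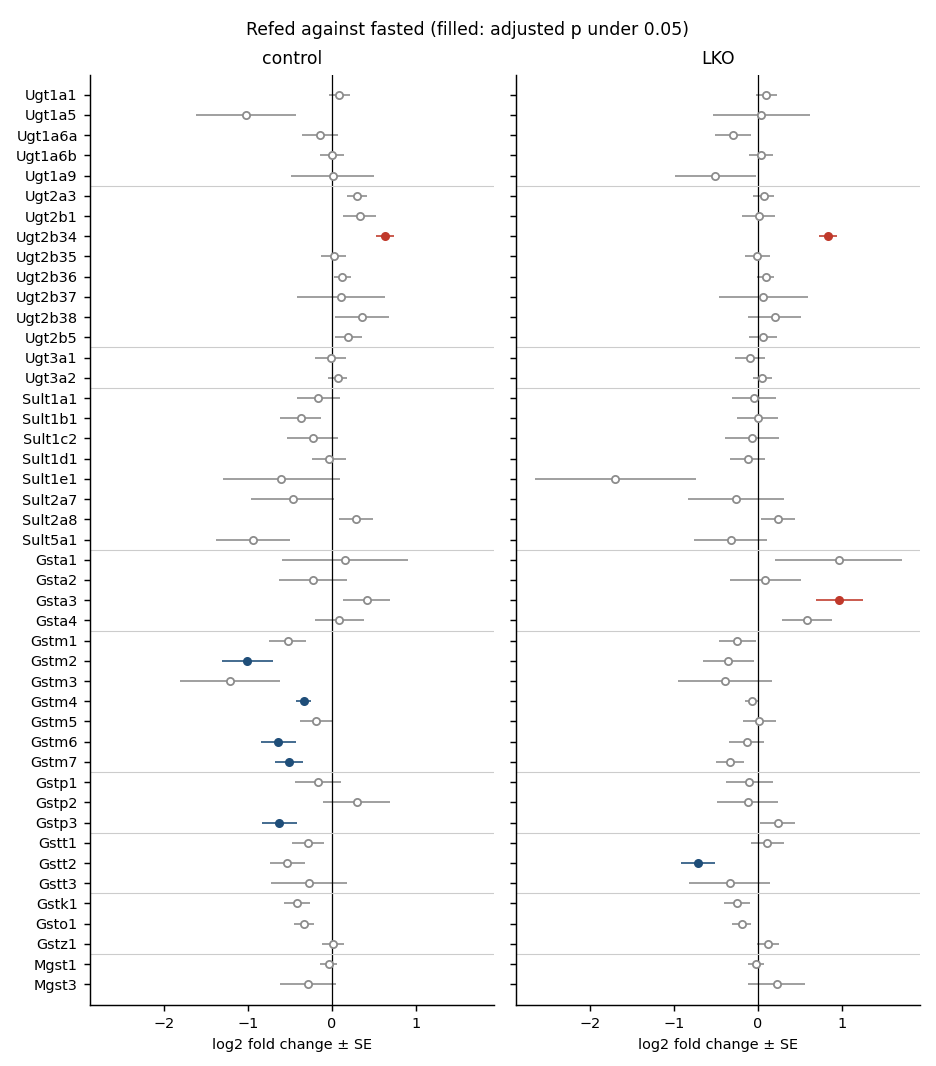
Log2 fold change of refed against fasted livers ± SE for each tested member in control (left) and LKO (right) livers; filled points passed an adjusted p of 0.05 (blue lower, red higher). Ugt2b34 is filled on the right of 0 in both panels, and the 7 Gstm genes all lie left of 0 in control livers.

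Ugt2b34 (ENSMUSG00000029260, chr5:87037626-87054796 in mm39), a glucuronosyltransferase of the UGT2B group whose promoter is printed above, was the 1 member that rose on refeeding in both genotypes. Its CPM were 271, 314, 353 and 296 for fasted controls, 251, 334, 268 and 316 for fasted LKO livers, 468, 428, 525 and 498 for refed controls and 569, 533, 496 and 486 for refed LKO livers. Every refed library lay above every fasted library, whatever the genotype. The rise was 1.55-fold in control livers (0.64 ± 0.11, adjusted p = 0.00162) and 1.78-fold in LKO livers (0.83 ± 0.11, adjusted p = 0.000116). The test of the difference between the 2 rises made no call (0.20 ± 0.15, adjusted p = 0.546). Between genotypes its differences were -0.08 fasted and 0.12 refed, with no call. The other 7 tested Ugt2 genes had control refeeding estimates of 0.02 to 0.36 with no call, and LKO estimates of -0.01 to 0.20 with no call. Ugt2b1 lies near Ugt2b34 on chr5 and had refeeding estimates of 0.34 and 0.01.

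The 7 mu class genes, Gstm1 to Gstm7, are clustered on chr3 and encode transferases for epoxides and quinones. In control livers all 7 had refeeding estimates below 0, from -1.22 to -0.19, and 4 were called. Gstm2 (chr3:107889018-107893769) had 68.9, 73.7, 80.9 and 79.9 for fasted controls, 36.7, 68.8, 28.1 and 81.2 for fasted LKO livers, 26.4, 47.96, 24.2 and 52.7 for refed controls and 51.6, 39.6, 47.3 and 30.0 for refed LKO livers, and fell by 2.01-fold in control livers (-1.01 ± 0.30, adjusted p = 0.0334). In LKO livers the fasted libraries S45 and S47 resembled fasted controls while S44 and S46 were at the refed level, and the estimate was -0.35 ± 0.30 (adjusted p = 0.466). Gstm4 (chr3:107947724-107952210) had 60.5, 64.6, 52.8 and 56.8 for fasted controls, 61.0, 57.0, 56.2 and 62.8 for fasted LKO livers, 43.1, 49.2, 44.9 and 48.6 for refed controls and 63.1, 56.2, 58.2 and 48.9 for refed LKO livers. All refed control values were below all fasted control values, a difference of -0.34 ± 0.09 (adjusted p = 0.0156), while in LKO livers it was -0.07 ± 0.09 (adjusted p = 0.647).

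Gstm6 (chr3:107846163-107851065) had 59.9, 59.4, 66.0 and 64.9 for fasted controls, 27.9, 55.4, 29.9 and 61.4 for fasted LKO livers, 39.3, 50.2, 32.6 and 38.4 for refed controls and 46.1, 37.7, 40.9 and 34.2 for refed LKO livers. Control livers fell by 1.56-fold without overlap (-0.64 ± 0.21, adjusted p = 0.0477), and fasted LKO livers again held 2 low libraries, S44 and S46. Gstm7 (chr3:107833650-107839133) had 53.2, 45.5, 46.1 and 49.6 for fasted controls, 34.1, 40.2, 33.5 and 40.5 for fasted LKO livers, 35.9, 48.97, 23.4 and 27.8 for refed controls and 33.3, 30.3, 28.4 and 26.2 for refed LKO livers, with a control difference of -0.52 ± 0.17 (adjusted p = 0.046) and refed library S49 within the fasted range. In LKO livers its estimate was -0.33 ± 0.17 (adjusted p = 0.198). Gstm1, the most abundant of the class, had 1024, 1165, 886 and 1103 for fasted controls, 780.5, 1082, 628 and 1428 for fasted LKO livers, 649, 847, 661 and 739 for refed controls and 1199, 720.3, 735 and 658 for refed LKO livers. Its refed control values were all below its fasted control values, at -0.53 ± 0.22, without passing (adjusted p = 0.119). The class sum was 1319 ± 120 CPM in fasted control and 898.4 ± 123.3 in refed control livers, and 1217 ± 434 and 1031 ± 290 in LKO livers. These control calls sat near the threshold. Gstm4 was lost without S48 (adjusted p = 0.0524), Gstm2 without S40, S41, S42, S43, S48 or S50 (0.0544 to 0.107), Gstm6 when any library except S44, S45, S46, S47 or S49 was left out (0.0521 to 0.14), and Gstm7 when any except S49 was left out (0.05 to 0.136).

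Gstp3, whose values are given above, fell on refeeding in control livers (-0.63 ± 0.20, adjusted p = 0.0488) and not by the test in LKO livers (0.24 ± 0.21, adjusted p = 0.47). Its control call was lost without S40, S41, S43, S44, S48, S49, S50, S52 or S55 (adjusted p from 0.0536 to 0.147). The fasted control libraries enter both this comparison and the fasted genotype comparison. Gsta3 rose in LKO livers from 858 ± 401 to 1680 ± 326 CPM, 1.96-fold (0.97 ± 0.28, adjusted p = 0.0241), and in control livers the estimate was 0.42 ± 0.28 (adjusted p = 0.338). The LKO call was lost without S44, S46, S52 or S53 (adjusted p from 0.0581 to 0.0704). Gstt2 fell in LKO livers from 181 ± 54.2 to 111 ± 32.2 CPM (-0.71 ± 0.20, adjusted p = 0.0242), a call lost without S44, S46, S54 or S55 (adjusted p from 0.0708 to 0.0809). In control livers its refed values all lay below its fasted values at -0.53 ± 0.20 (adjusted p = 0.0917). No tested Sult, Ugt1, Ugt3 or Mgst gene passed a refeeding test.

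**Figure D5:**
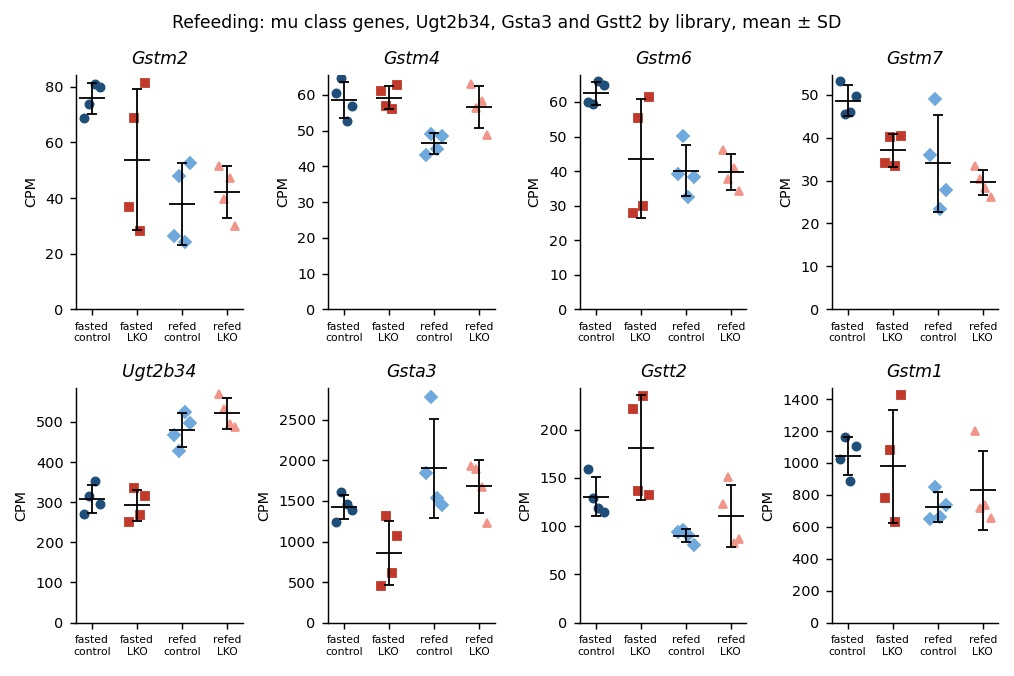
CPM in each library (points) with mean ± SD of 4 libraries for 4 called mu class genes, Ugt2b34, Gsta3, Gstt2 and Gstm1; each panel has its own linear axis from 0. All refed Ugt2b34 points lie above all fasted points, and the fasted LKO points of Gstm2, Gstm6 and Gstt2 form 2 pairs.

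Whether the genotype difference changed with feeding was tested as an interaction, which called 0 members where 0.538% of all genes were called. DESeq2 and limma-voom also called 0, and 2 of the 45 tested members had an unadjusted p under 0.05, with no share of all genes computed. The lowest adjusted p was 0.153, for Gstp3 (0.87 ± 0.29). All 7 mu class genes had interaction estimates above 0, from 0.19 to 0.82, the lowest adjusted p among them being 0.274 for Gstm4 (0.27 ± 0.12), so a smaller refeeding difference of this class in LKO livers was not shown. The refeeding differences of control and LKO livers, which rest on separate libraries, had the same sign in 34 of 45 members (Pearson's r 0.55, Spearman's rho 0.61, and 0.49 and 0.45 over all genes). Here too no same-sign share over all genes was computed.

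Counts of calls in the supporting lists that follow are to be read beside the shares over all genes. Between genotypes, 12.2% of all genes were called fasted and 3.63% refed, in either direction. On refeeding, 15.4% were called in control and 18.1% in LKO livers. No list was tested as a set. A list of 7 genes covered the supply and use of UDP sugars and the cleavage of glucuronides. Of these, 1 was called between genotypes. It was the lysosomal glucuronidase Gusb, which cleaves glucuronides and is not a supply gene, lower in fasted LKO livers (-0.32 ± 0.10, adjusted p = 0.0489). Ugdh, which makes UDP-glucuronic acid, was at 0.32 ± 0.14 (adjusted p = 0.159). Uxs1, which turns it into UDP-xylose, rose on refeeding in control (0.83) and LKO livers (0.57). For the sulfate donor PAPS, 3 of 7 tested genes were called fasted. The sulfate transporter Slc26a1 fell from 158 ± 14.7 to 99.02 ± 14.8 CPM (-0.68 ± 0.12, adjusted p = 0.00178), the Golgi PAPS transporter Slc35b2 was lower (-0.34) and its relative Slc35b3 higher (0.31). None was called between genotypes refed. On refeeding Slc26a1 rose in both genotypes (0.68 and 1.10), as did Bpnt1, which clears the by-product of sulfonation (0.43 and 0.33). Slc35b2 fell on refeeding in control livers (-0.66, adjusted p = 0.000506), and in LKO livers it was at -0.25 (adjusted p = 0.0705). The median genotype differences of the 2 lists were 0.12 and 0.13 fasted and -0.09 and 0.05 refed.

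For glutathione, 2 of 12 tested genes were called in the fasted state (median -0.09). Gsr, the reductase that regenerates glutathione, was higher in LKO livers, at 94.1 ± 10.3 against 56.2 ± 5.46 CPM (0.74 ± 0.09, adjusted p = 0.000238), and again refed at 89.0 ± 2.73 against 67.3 ± 5.52 (0.40 ± 0.09, adjusted p = 0.0223), the 1 gene of the list called in that state (median -0.03). Chac1, which degrades glutathione, was lower in fasted LKO livers, at 2.67 ± 0.691 against 11.7 ± 8.47 CPM (-2.14 ± 0.49, adjusted p = 0.0102). On refeeding it fell in control livers (-2.43), and the fasted control libraries enter both differences. The 5-oxoprolinase Oplah fell on refeeding in both genotypes (-0.37 and -0.48), and the glutathione synthetase Gss and Chac2 rose in LKO livers (0.29 and 0.72). Gclc and Gclm, the subunits of the enzyme that starts glutathione synthesis, were not called between genotypes, at 0.14 and -0.18 fasted and 0.20 and 0.04 refed.

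Conjugating enzymes outside the 4 families had 6 of 18 tested genes called fasted, 5 lower and 1 higher (median -0.34), and 1 refed (median -0.15). The methyltransferase Inmt fell from 700 ± 92.0 to 229.8 ± 86.1 CPM (-1.61 ± 0.25, adjusted p = 0.00089), the nicotinamide methyltransferase Nnmt from 154 ± 38.9 to 59.4 ± 22.0 (-1.37 ± 0.33, adjusted p = 0.0127), and the histamine methyltransferase Hnmt from 33.6 ± 3.53 to 17.6 ± 7.52 (-0.94 ± 0.23, adjusted p = 0.0166). Nat8, which completes mercapturates from glutathione conjugates, was lower (-0.85) and rose on refeeding in control (1.06) and LKO livers (1.79). Acsm5 was also lower (-0.42). The predicted glycine acyltransferase Gm4952 was the higher one (0.80 ± 0.12, adjusted p = 0.000829), and it fell on refeeding in control (-0.73) and LKO livers (-1.49), where Keg1 rose (1.27). Refed, the acetyltransferase Nat2 was lower (-0.42, adjusted p = 0.0434).

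Of 14 transporters of conjugates and organic anions, 5 were called fasted, 4 lower and 1 higher (median -0.07), and 1 refed (median -0.01). Slc22a7, an organic anion uptake carrier, was lower in LKO livers in both states, at 12.01 ± 3.96 against 38.6 ± 7.72 CPM fasted (-1.68 ± 0.26, adjusted p = 0.000829) and 33.2 ± 10.5 against 76.6 ± 8.80 refed (-1.20 ± 0.25, adjusted p = 0.0146). It rose on refeeding in both genotypes (0.99 and 1.46). Abcb4, the phosphatidylcholine exporter of the canaliculus, was higher fasted (0.82 ± 0.12, adjusted p = 0.000753), and Abcc6, Abcb1a and Slco1b2 were lower (-0.54, -0.80 and -0.41). The conjugate exporters Abcc2 and Abcc3 had fasted estimates of 0.14 and -0.15 with no call. Among 14 phase I and hydrolase genes 3 were called fasted (median -0.21) and 1 refed (median -0.08): the fatty aldehyde dehydrogenase Aldh3a2 was higher in both states (1.30 and 0.92), the soluble epoxide hydrolase Ephx2 was higher fasted (0.60) and the carboxylesterase Ces2a lower (-0.75).

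Of 14 regulators of conjugation genes 2 were called fasted (median -0.21) and 0 refed (median -0.16), beside 12.2% and 3.63% of all genes. Nfe2l2, which encodes NRF2, was higher in fasted LKO livers, at 80.9 ± 15.7 against 56.2 ± 11.8 CPM (0.53 ± 0.16, adjusted p = 0.0359), and Esrra was lower (-0.27). Refed, Nfe2l2 was at 0.51 ± 0.16 (adjusted p = 0.0775). The receptors behind the xenobiotic response, Ahr, Nr1i2 (PXR) and Nr1i3 (CAR), were not called, with fasted estimates of -0.21, -0.12 and -0.33. A list of NRF2 targets outside the 4 families had 2 of 14 tested genes higher fasted, Srxn1 (0.89 ± 0.19, adjusted p = 0.00678) and Txnrd1 (0.31), and 0 refed, with medians of 0.10 and 0.14. Gsr, called higher in LKO livers in both states, was counted in the glutathione list and not in this one. Gsta3, Gstm5 and Mgst1, the members whose promoter windows held TGACNNNGC, had fasted genotype estimates of -0.73, 0.01 and 0.04 with no call. Such a match does not show that NRF2 acts on a gene, and whether it acts on any member was not tested. Of the 4 tested AHR targets only Cyp1a2 was called, lower fasted and refed (-1.01 and -0.59, list medians -0.09 and -0.10). CAR and PXR targets had 3 of 10 lower and 1 higher fasted (median -0.50): Cyp2c29 (-1.75), Cyp2c55 (-1.89) and Ces2a were lower and Gadd45b was higher (1.73). Refed, Cyp2c29 alone was called (-1.68, list median -0.25).

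The authors' deposited tables carry their own adjusted p-values. At the same threshold the authors' deposited table of the fasted genotype comparison lists 12 members, 4 higher and 8 lower in LKO livers, and 6 of these were also called here. The others were Gsta2, Gsta4, Gstm7, Ugt1a7c, Ugt2b35 and Ugt2b5. In the authors' deposited tables the refed genotype comparison has 5, all lower, and the refeeding comparisons have 11 in control and 3 in LKO livers, of which 3, 5 and 3 were called here. Those not called here were Sult1c2 and Sult2a7 refed, and Gstk1, Gstm1, Gstm3, Gsto1, Gstt2 and Ugt2a3 in control refeeding. All members called in both had the same direction. Sult2a7 fasted and Gstm7 in control refeeding were called here and not in the authors' deposited tables.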

How the data were processed

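Libraries were built from poly-A RNA with random hexamers and dUTP, per the labels' protocols. HISAT2 2.0.5 and build mm39 are named per the submitters' processing notes. The counter, its use of strand and the annotation are not given in the sources used here, so reads of overlapping genes on opposite strands cannot be told apart. The authors deposited 4 tables, one for each pair of groups, with raw counts per gene and gene lengths. The authors' log2 fold changes, deposited as group 1 over group 2 of each file heading, had their sign turned so that LKO is set against control, and refed against fasted. The authors' p-values are deposited without naming a tool. In addition, 64 deposited columns with normalized values of single libraries were left out.

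Count columns carry library names, S40 to S55, that match no sample title. The group heading shared by the 2 tables holding a library gave its group: fasted controls are S40 to S43, LKO livers of the fasted state S44 to S47, refed controls S48 to S51, and LKO livers of the refed state S52 to S55. The tables were joined on gene identifier, with 0 differing counts and absent genes set to 0 (3148 genes). No 2 libraries of a group agreed within sampling noise (lowest chi-square per degree of freedom 15.4).

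Counts were fitted in R 4.3.3 with edgeR 4.0.16 (filterByExpr, TMM, glmQLFit and glmQLFTest), 1 factor of 4 groups over all 16 libraries. In each of 5 contrasts a call needs a p below 0.05 after Benjamini-Hochberg adjustment across the 14488 genes tested. The fit was tested on simulated data. SEs of fold changes are the estimate divided by the root of the F statistic. Alternatives were DESeq2 1.42.0, limma-voom (limma 3.58.1), upper quartile and RLE scaling, no filter, a mean of at least 5 CPM, the 2 groups compared alone, an adjusted p under 0.01, and leaving out each library. Scaling alternatives changed no direction of a called member. Values in every library are given for up to 8 called members of each genotype contrast and 5 of each refeeding contrast with the largest differences and a mean of at least 1 CPM, and for the 2 highest per length in each of 10 families. The members and lists were chosen with earlier results of these data known. Shared sequence was counted as 50-base stretches of GENCODE M21 transcripts. Promoters are RefSeq's.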

Additional observations from a re-analysis of the deposited data

Results flagged for a closer look

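In groups of 4 libraries, the level of a named member was marked where 1 library stood far from the other 3 by Dixon's criterion. Of 120 groups tested 2 were marked, where chance marks about 1 in 20. In refed LKO livers Gstm1 had 1199 CPM in library S52, against 658 to 735 in the other 3. In refed control livers Mgst3 had 19.6 CPM in library S49, against 13.9 to 14.7 in the other 3. Neither gene was called in any contrast.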

How the results depend on the processing

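No called member changed direction under any alternative. The fasted genotype count of 7 ran from 4 to 10 over fits that left out 1 library (4 without S41 or S43) and was 4 at an adjusted p under 0.01. Of these calls the higher ones ran from 0 to 4 (4 without S47 or S49: Gstp2, Ugt2b5, Ugt2b35 and Ugt1a7c) and the lower ones from 4 to 8 (8 without S45). These counts include Ugt1a7c, which failed the filter of the reported fit. The refed count of 3 ran from 1 to 4 (1 without S48, S53, S54 or S55) and was 1 at 0.01. The control refeeding count of 6 ran from 1 to 7 (1 without S48, 2 without S40, S41, S43 or S50, 3 without S42, S52 or S55), was 10 when only the 2 groups were fitted and 1 at 0.01. The LKO refeeding count of 3 ran from 1 to 4 (1 without S44 or S46), was 1 with only the 2 groups fitted and 1 at 0.01. The interaction gave 0 throughout, and the other alternatives stayed within 1.5 times of each count. Sult1d1 in both states, Gstt1, Gstt3 and Gstp3 fasted, and Ugt2b34 in both genotypes kept their calls in all 16 such fits and every other setting run, with Sult1d1 from -1.43 to -1.11 fasted and from -1.47 to -1.19 refed, and Ugt2b34 from 0.58 to 0.71 in control and from 0.77 to 0.91 in LKO livers. Leaving out 1 library, Cpt1a ran from -2.40 to -2.21 fasted and from -3.27 to -2.89 refed. Members not called in the reported fits were called in others. Fasted between genotypes these were Ugt2b5, Gsta3, Ugt1a7c, Sult1b1, Gstm7, Gstz1, Ugt2b1, Gstm6 and Ugt2b35, and refed Gstm4 (DESeq2), Sult2a7 (2 groups alone) and Sult5a1 (without S51). On refeeding they were Gsto1, Sult5a1, Gstm1, Gstm3, Gstt2, Ugt2a3 and Gstk1 in control and Gsta1 in LKO livers, with Gsto1 called by DESeq2, the 5 CPM filter, the 2 groups alone and without S49, S53 or S54. No paired analysis was possible because the count columns carry no replicate numbers. Beyond the 2-group and stricter settings, the causes of these shifts were not tested. Genes under about 1 CPM, such as Sult1e1, are limited by depth.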

Other observations

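Lists of genes known to differ by lobule position and by sex were read beside the members, since many conjugation genes follow both. Of all genes, 12.2% were called between genotypes fasted and 3.63% refed, in either direction. Of 12 pericentral hepatocyte genes 4 were lower and 1 was higher in fasted LKO livers (median log2 difference -0.60, and 0.02 over all genes). Slc1a2, a pericentral glutamate carrier, fell from 154 ± 26.6 to 74.1 ± 4.18 CPM (-1.05 ± 0.12, edgeR adjusted p = 0.00023), glutamine synthetase Glul from 1318 ± 226 to 734 ± 138 (-0.84 ± 0.17, adjusted p = 0.00453), and Cyp1a2 and Rgn were also lower (-1.01 and -0.77). The WNT target Axin2 was higher (0.83). Refed, Slc1a2 and Cyp1a2 were lower (-0.82 and -0.59, list median -0.34).

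Of 12 periportal genes 2 were higher and 1 lower fasted (median -0.43): Apoa4 (1.96) and Hsd17b13 (0.58) were higher and the glutaminase Gls2 was lower (-0.85). Refed, Apoa4 and Hsd17b13 were higher (2.48 and 0.59) and Pigr lower (-0.53, list median -0.41). Of 12 male-biased genes 1 was called, Nudt7, lower fasted (-0.81), and 0 refed, with list medians of 0.29 and 0.46 on the higher side. Of the 7 tested female-biased genes Hao2 was lower in both states (-2.82 and -3.75) and Cyp2b13 refed (-4.42), with list medians of -0.09 and -1.38. Hao2 is near the floor, with means of 1.06 and 0.152 CPM in fasted control and LKO livers and 1.15 and 0.0709 refed. Cyp2b13 had 15.4 ± 8.57 CPM in refed control and 0.677 ± 0.934 in refed LKO livers. In this list 3 estimates lay above 0 fasted and 2 refed.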
